A study of Homo sapiens with 9 samples.

Results

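GCLC, LAP3 and POLDIP2 are 3 of the 49 genes whose counts were analysed here. They were chosen by name and Ensembl identifier for their part in glutathione and redox metabolism, not by their values. Earlier results of these data were known when they were chosen. The libraries came from HK-2 cells, an immortalized line of human proximal tubular epithelium, sequenced as polyA RNA. There were 9 libraries in 3 groups of 3. The shJMJD1A-AGE group carried a lentiviral shRNA against the histone H3K9 demethylase JMJD1A (KDM3A) and received advanced glycation end products (AGEs) at 400 μg/ml for 72 h, the shCtrl-AGE group carried a control shRNA and received the same AGEs, and the shCtrl-Normal group carried the control shRNA and is labelled Normal. The treatment text in the labels names AGEs for every library, so that the Normal cells had none is read from the group names only. All 9 libraries therefore come from transduced cells of the same line. The labels name no silenced group without AGEs, so silencing can be read only in cells given AGEs. Nothing in the labels says that the 3 libraries of a group are separate cultures, so the p-values measure the spread between these libraries, which may be technical.

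Glutathione is the main soluble thiol of the cell and takes up peroxides and electrophiles. Glutamate cysteine ligase makes its dipeptide precursor from glutamate and cysteine in the rate-limiting step, and GCLC encodes the catalytic subunit of that enzyme, a well-known target of the transcription factor NRF2. Glutathione exported from the cell is split outside it to cysteinylglycine, which peptidases cut to give cysteine back. LAP3 encodes the cytosolic leucine aminopeptidase, which can cut cysteinylglycine. POLDIP2 encodes a protein first found as a partner of DNA polymerase delta and PCNA, and in vascular smooth muscle cells it associates with p22phox and raises the activity of the NADPH oxidase NOX4, an enzyme abundant in the proximal tubule that releases hydrogen peroxide. AGEs bind the receptor RAGE, and a rise in reactive oxygen species is a known effect of that binding in renal cells.

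GCLC (ENSG00000001084) lies on the minus strand of chromosome 6 of GRCh38 from 53497341 to 53616970. Its canonical transcript has 16 exons and 3785 bases (GENCODE release 44). The 5′ end of this span lies upstream of the RefSeq start used below, so GCLC has other annotated starts. LAP3 (ENSG00000002549) lies on the plus strand of chromosome 4 from 17577198 to 17607972, with 13 exons and 2209 bases. POLDIP2 (ENSG00000004142) lies on the minus strand of chromosome 17 from 28346633 to 28357527, with 11 exons and 2670 bases.  The strand setting of the counting is not given in the sources used here, so reads within exons shared with a gene on the other strand cannot be told apart. TNFAIP1 on the other strand covers 377 bases of the POLDIP2 transcript, which is 14.1% of it. GCLC-AS1 covers 252 bases of the GCLC transcript, or 6.66%. On the same strand as GCLC, the long noncoding RNA gene ENSG00000231683 shares 529 exonic bases with other GCLC transcripts, but none with the canonical one. Strand cannot separate reads there. No exon of another gene overlaps the LAP3 transcript, but the processed pseudogene LAP3P2 matches it at 94.8% identity over 1466 bases, so some LAP3 reads may have been split or lost by the mapping.

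The stretches of 114 bases just before the RefSeq start sites (GRCh38.p14) are shown as a description of the 3 genes. No chromatin or binding data were used, and a link between these sequences and the levels of the genes was not tested. The window ends before TMEM199, the neighbour that starts on the other strand upstream of POLDIP2, and none of the 3 stretches overlaps an annotated exon. They are written 5′ to 3′ on the strand of the gene, and capitals mark motif matches.
GCLC, chr6:53545102-53545215, minus strand: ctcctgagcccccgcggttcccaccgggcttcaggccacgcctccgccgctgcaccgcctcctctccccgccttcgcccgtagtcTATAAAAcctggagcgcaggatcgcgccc
LAP3, chr4:17577084-17577197, plus strand: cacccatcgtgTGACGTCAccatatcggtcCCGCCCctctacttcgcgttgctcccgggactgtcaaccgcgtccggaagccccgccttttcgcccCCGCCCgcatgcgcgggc
POLDIP2, chr17:28357528-28357641, minus strand: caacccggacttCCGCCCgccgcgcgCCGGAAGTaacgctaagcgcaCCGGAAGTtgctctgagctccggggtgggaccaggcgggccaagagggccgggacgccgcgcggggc
All 3 are GC-rich, at 71.1% for GCLC, 69.3% for LAP3 and 74.6% for POLDIP2, against a median of 60.5% over the 35116 start regions of the RefSeq table. The motifs differ between the genes. GCLC holds a TATA motif (TATAAAA) from 29 to 23 bases before its start, found in 2.02% of start regions. LAP3 holds a cAMP response motif (TGACGTCA), found in 1.26%, from 103 to 96 bases before its start. POLDIP2 holds the ETS motif (CCGGAAGT) at 2 places, and 2.65% of start regions hold it at least once. The GC box (CCGCCC, 33.3% of start regions) occurs at 2 places in LAP3 and at 1 in POLDIP2. None of the 3 stretches holds the core of the antioxidant response element (TGACNNNGC, 5.78%), CCAAT (19.8%) or the E-box CACGTG (3.76%). Only these 114 bases were searched, so an element further from the start could not be found, and its absence here does not show that a gene lacks it. All 7 motifs were searched on both strands, none of the marked matches overlap, and the motifs were chosen after the sequences had been seen. A match is a description of these letters only.

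The counts of the 49 genes summed to between 67563 and 107036 per library. These sums are not library depths. Counts were scaled by TMM, edgeR's trimmed mean of M-values, over these genes, so every level below is relative to the other genes analysed. A scaled count is the count divided by the effective total of its library and multiplied by the mean effective total. Scaled counts rest on all 49 genes in all 9 libraries, whereas each fold change comes from a fit to the 6 libraries compared, with factors from the genes that passed the filter on low counts, so a fold change is not the ratio of the scaled counts printed beside it. Members had 899 to 3126 counts in a library, and counting error alone gives a coefficient of variation of 1.9% to 3.08% at their group means. The spread between the libraries of a group was 2.90% to 13.3%. In bulk samples, fewer cells of a type and less RNA per cell cannot be told apart. Other cell types could hardly be checked: of the fixed markers, the leukocyte genes FGR and CD38 had 6 counts in all over the 9 libraries, and of 9 proximal tubule and 5 simple epithelium markers none was analysed here, so the labelled cell type could not be checked. CFTR, the 1 of 5 distal and collecting duct markers analysed, had 43.1, 28.4 and 11.5 scaled counts in shJMJD1A-AGE libraries, against 4.82, 9.41 and 10.03 in shCtrl-AGE libraries and 11.7, 13.8 and 9.498 in shCtrl-Normal libraries. CFTR was higher in the silenced libraries than in shCtrl-AGE libraries, like GCLC and POLDIP2, but did not pass (adjusted p = 0.0510 by edgeR). Against shCtrl-Normal libraries it overlapped and did not pass (adjusted p = 0.108 by edgeR). It had only 5 to 37 counts in a library, and its part in the results of GCLC and POLDIP2 was not tested. JMJD1A itself was not analysed here, so the labels could not be checked against the silenced gene.

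Per kilobase of canonical transcript, the 3 genes kept the same order of level in each group, POLDIP2 above LAP3 above GCLC. In shJMJD1A-AGE cells the scaled count per kilobase was 1061 ± 141 for POLDIP2, 551 ± 22.1 for LAP3 and 388 ± 25.2 for GCLC (SD, n = 3). In shCtrl-AGE cells it was 754 ± 21.9 for POLDIP2, 548 ± 21.4 for LAP3 and 296 ± 24.4 for GCLC (SD, n = 3). In shCtrl-Normal cells it was 888 ± 54.7 for POLDIP2, 590.2 ± 30.6 for LAP3 and 265 ± 21.5 for GCLC (SD, n = 3). Neighbours in this order differed by more than their spread in every group.

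**Figure D1:**
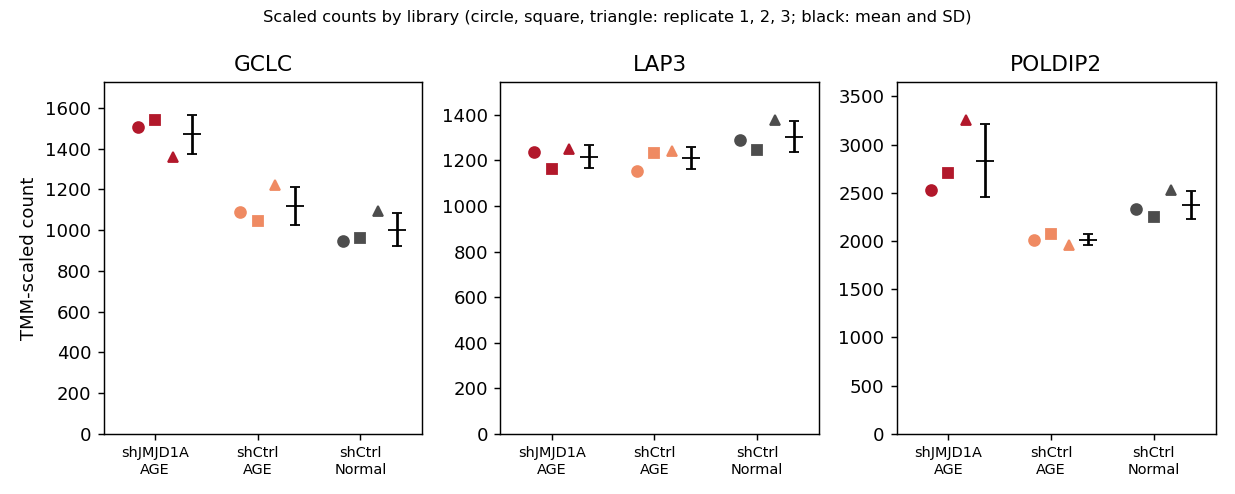
TMM-scaled counts (vertical axis, from 0) of GCLC, LAP3 and POLDIP2 in each of the 9 libraries, by group; symbols are replicates 1 to 3 and black bars the mean and SD of 3 libraries. GCLC stands highest in shJMJD1A-AGE cells (1361 to 1540.4), LAP3 has the narrowest range (1155 to 1377 over all libraries), and POLDIP2 is lowest in shCtrl-AGE cells (1956 to 2073).

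The first question is which of the 3 genes differed anywhere among the groups. Tested over all 9 libraries in 1 fit, each of them did. The adjusted p for any difference among the 3 groups was 0.000218 for GCLC, 0.00252 for POLDIP2 and 0.0224 for LAP3 (edgeR quasi-likelihood F test, Benjamini-Hochberg adjusted over 46 genes). Of all genes tested, 54.3% passed this test, so passing it is common here. An exact permutation test over the 9 libraries, whose smallest p is 0.00357, gave adjusted p-values of 0.0329 for GCLC, 0.0329 for POLDIP2 and 0.0493 for LAP3, and 43.5% of genes passed it. The result for LAP3 rests on a few libraries. Its adjusted p by edgeR was 0.429 without shJMJD1A-AGE replicate 2, 0.110 without shCtrl-Normal replicate 3 and 0.0793 without shCtrl-Normal replicate 1, while GCLC and POLDIP2 passed without any library in turn.

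To see what silencing of JMJD1A did in cells given AGEs, the shJMJD1A-AGE group was compared with the shCtrl-AGE group. GCLC and POLDIP2 rose, by a fold of 1.25 and 1.34, and LAP3 did not pass. Thus 2 of the 3 members passed, against 42.2% of the 45 genes tested, and 20% of genes passed as higher and 22.2% as lower. GCLC had 1507, 1540.4 and 1361 scaled counts in shJMJD1A-AGE libraries, against 1090.5, 1045 and 1223 in shCtrl-AGE libraries. Every silenced library was above every control library, and this absence of overlap was found in 55.6% of genes. The log2 fold change of GCLC was 0.32 (standard error 0.0810, 95% interval 0.14 to 0.50), with an adjusted p of 0.00620 (edgeR quasi-likelihood F test, Benjamini-Hochberg adjusted).

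POLDIP2 had 2531, 2710.2 and 3255 scaled counts in shJMJD1A-AGE libraries, against 2007, 2073 and 1956 in shCtrl-AGE libraries. The groups again did not overlap, and shJMJD1A-AGE replicate 3 lay well above the other silenced libraries. Its log2 fold change was 0.42 (standard error 0.102, 95% interval 0.19 to 0.64), with an adjusted p of 0.00529 by the same edgeR test. Without that library the value was 0.30, with an adjusted p of 0.000930 by edgeR. With upper-quartile scaling, which moved the median gene by −0.21, neither gene passed, at 0.11 for GCLC (adjusted p = 0.427 by edgeR) and 0.21 for POLDIP2 (0.159). LAP3 had 1237, 1161 and 1252 scaled counts in shJMJD1A-AGE libraries, against 1155, 1233 and 1239.8 in shCtrl-AGE libraries. These ranges lie almost on top of each other, and the mean was 1217 in shJMJD1A-AGE libraries and 1209 in shCtrl-AGE libraries. On the scale of the fit the sign was the other way. The log2 fold change of LAP3 was −0.06 (standard error 0.0694, adjusted p = 0.486 by edgeR), and its 95% interval, −0.22 to 0.09, does not reach a fold of 2 either way. No member reached that fold in any comparison, whereas 8.89% of genes passed with it here, 13.3% in the silenced group against Normal and 0% with AGEs (edgeR). In this comparison 9 genes passed as higher and 10 as lower, and scaling by plain totals gave 13 higher and 8 lower. LAP3 turned to 0.082 with plain totals and to 0.0088 with no filter on low counts.

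The effect of AGEs themselves was read from the shCtrl-AGE group against the shCtrl-Normal group. Of the 3 members POLDIP2 alone passed, and it fell, to a fold of 0.837. Of the 46 genes tested, 32.6% passed, 13% as lower and 19.6% as higher. POLDIP2 had 2007, 2073 and 1956 scaled counts in shCtrl-AGE libraries, against 2329, 2249 and 2532 in shCtrl-Normal libraries. Every AGE library lay below every Normal library, a separation seen in 43.5% of genes. The log2 fold change was −0.26 (standard error 0.0600, 95% interval −0.38 to −0.14), with an adjusted p of 0.000189 (edgeR quasi-likelihood F test, Benjamini-Hochberg adjusted). In this pair edgeR gave the 3 members, like most genes, the same spread and 184 degrees of freedom. The standard errors, intervals and p-values of the members here thus rest on a spread pooled over genes, not on each gene's own libraries. With all 3 groups in 1 fit the value of POLDIP2 was −0.29 and the adjusted p by edgeR 0.0403. Upper-quartile scaling, which moved the median gene by 0.32, gave 0.060.

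GCLC had 1090.5, 1045 and 1223 scaled counts in shCtrl-AGE libraries, against 949, 961 and 1096 in shCtrl-Normal libraries. The groups overlapped. The log2 fold change of GCLC was 0.14 (standard error 0.0676, 95% interval 0.0046 to 0.27) and the adjusted p 0.0936 by edgeR; the adjusted p was 0.00880 without shCtrl-Normal replicate 3 and 0.0484 without shCtrl-AGE replicate 2. LAP3 had 1155, 1233 and 1239.8 scaled counts in shCtrl-AGE libraries, against 1289.7, 1244 and 1377 in shCtrl-Normal libraries. The groups just failed to overlap, with the highest AGE library at 1239.8 and the lowest Normal library at 1244 scaled counts. The log2 fold change of LAP3 was −0.13 (standard error 0.0654, 95% interval −0.26 to −0.00086) and the adjusted p 0.101 by edgeR, or 0.0484 without shCtrl-AGE replicate 2. LAP3 did not pass without any other single library (adjusted p up to 0.339 by edgeR). With plain totals it was −0.19 and passed (adjusted p = 0.0170 by edgeR), and with upper-quartile scaling it was 0.19. In this comparison 9 genes were called higher and 6 lower, and plain totals gave 6 higher and 11 lower.

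The shJMJD1A-AGE group was last set against the shCtrl-Normal group, from which it differs by its labels in both the shRNA and the AGEs, which cannot be told apart here. GCLC was higher, by a fold of 1.39, and was the only member to pass, where 40% of the 45 genes tested passed, 17.8% as higher and 22.2% as lower. Its libraries, given above, did not overlap, as in 53.3% of genes. The log2 fold change of GCLC was 0.48 (standard error 0.0773, 95% interval 0.31 to 0.65), with an adjusted p of 0.000554 (edgeR quasi-likelihood F test, Benjamini-Hochberg adjusted). POLDIP2, at 2531, 2710.2 and 3255 scaled counts in shJMJD1A-AGE libraries against 2329, 2249 and 2532 in shCtrl-Normal libraries, overlapped at the edge of their ranges. Its log2 fold change was 0.18 (standard error 0.102, 95% interval −0.04 to 0.41, adjusted p = 0.180 by edgeR). The value turned on the silenced libraries, at 0.071 without replicate 3 and 0.29 without replicate 1, where the adjusted p by edgeR was 0.0347. For LAP3 the log2 fold change was −0.17 (standard error 0.0717, 95% interval −0.33 to −0.01) and the adjusted p 0.0803 by edgeR. LAP3 passed in 4 of the 18 alternative settings. Among these were all 3 groups in 1 fit (−0.20, adjusted p = 0.0134 by edgeR) and DESeq2 size factors (−0.21, 0.0303 by edgeR). The fit without shJMJD1A-AGE replicate 3 also passed (−0.19, 0.0347 by edgeR). In the other settings LAP3 did not pass, with an adjusted p of up to 0.365 by edgeR, found with upper-quartile scaling.

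The 3 genes thus took different courses over the groups. For GCLC the order of the mean scaled counts was shJMJD1A-AGE (1469.5 ± 95.5), shCtrl-AGE (1119.6 ± 92.5) and shCtrl-Normal (1002 ± 81.5; SD, n = 3 each), and the libraries of the lower pair of groups overlapped. For POLDIP2 it was shJMJD1A-AGE (2832 ± 377), shCtrl-Normal (2370.4 ± 146) and shCtrl-AGE (2012 ± 58.4; SD, n = 3 each). For LAP3 the means lay between 1209 and 1304. The comparison of AGEs with Normal and that of silencing with control share the shCtrl-AGE libraries, so the opposite signs of POLDIP2 in them, −0.26 and 0.42, are not independent.

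**Figure D2:**
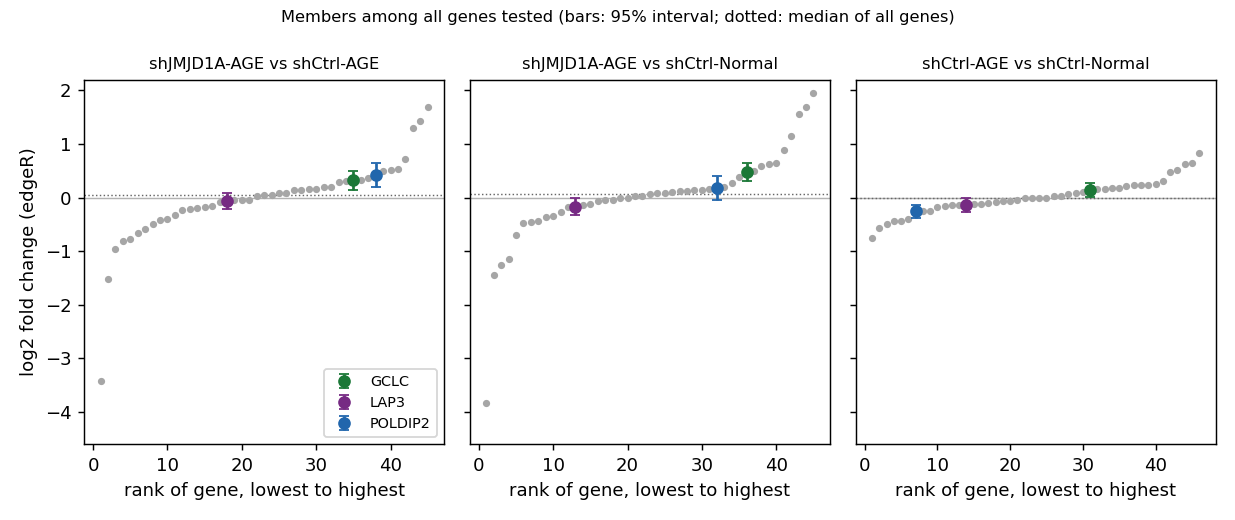
Log2 fold changes (vertical axis, edgeR) of all genes tested in each comparison, ranked from lowest to highest (horizontal axis), with GCLC, LAP3 and POLDIP2 coloured and their 95% intervals; the dotted line is the median of all genes. Among 45 genes POLDIP2 ranks 8 from the top and GCLC 11 after silencing, and among 46 genes POLDIP2 ranks 7 from the bottom with AGEs.

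Within the fits the members were not extreme. After silencing, POLDIP2 ranked 8 and GCLC 11 from the highest of 45 genes, and LAP3 ranked 18 from the lowest. With AGEs, POLDIP2 ranked 7 and LAP3 14 from the lowest of 46 genes, and GCLC 16 from the highest. Because the scaling rests on 49 genes, the members were also read relative to the median gene of the same fit. A scaling that moves all genes alike cancels on that scale, so what can move these values is the choice of libraries, genes and model. Over the settings tried, after silencing, GCLC stood 0.24 to 0.36 above the median gene, POLDIP2 0.30 to 0.48 above it, and LAP3 lay between −0.11 and −0.07 from it, on the log2 scale. With AGEs POLDIP2 lay between −0.28 and −0.19 from the median gene, LAP3 between −0.14 and −0.07, and GCLC 0.08 to 0.22 above it.

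**Figure D3:**
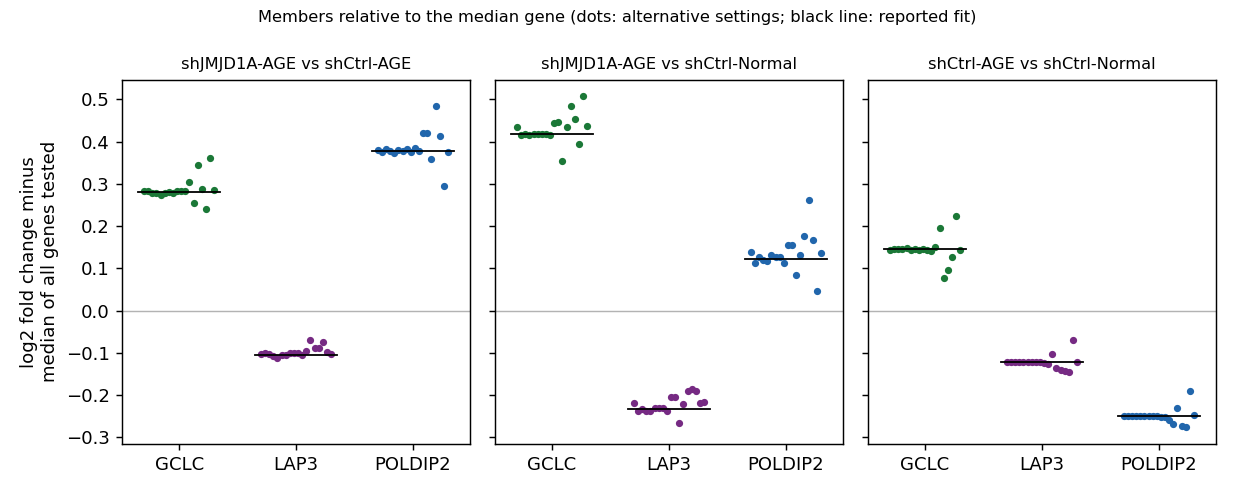
Log2 fold change minus the median of all genes tested in the same fit (vertical axis) for the 3 members in each comparison; dots are the 18 alternative settings, of which those that change only the scaling cancel here, and the black line is the reported fit. GCLC lies above 0 and LAP3 below 0 in every setting, and POLDIP2 lies below 0 with AGEs and above 0 in both comparisons of the silenced group.

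A ratio of 2 genes in the same library does not depend on the scaling between libraries at all, so the members were also compared with each other as log2 ratios of their counts. The GCLC/LAP3 ratio sets the enzyme of glutathione synthesis against the peptidase. It was 0.28, 0.41 and 0.12 in shJMJD1A-AGE libraries, against −0.08, −0.24 and −0.02 in shCtrl-AGE libraries. In shCtrl-Normal libraries it was −0.44, −0.37 and −0.33. The 3 groups did not overlap, with shJMJD1A-AGE highest and shCtrl-Normal lowest. Ratios of other gene pairs were not computed, so how common such a separation is here was not tested. Among single genes, 43.5% to 55.6% did not overlap between a pair of groups, which is a looser condition on a different measure. Since the genes differ in length, a ratio is read between groups and not as a level. The differences in mean log2 ratio were 0.38 for silencing in cells with AGEs, 0.27 for AGEs against Normal and 0.65 for the silenced group against Normal.

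The LAP3/POLDIP2 ratio was −1.03, −1.22 and −1.38 in shJMJD1A-AGE libraries, against −0.80, −0.75 and −0.66 in shCtrl-AGE libraries. In shCtrl-Normal libraries it lay within a narrow range, −0.85, −0.85 and −0.88. Again the 3 groups did not overlap, with shCtrl-AGE highest and shJMJD1A-AGE lowest. The share of other gene pairs that separate in this way was not computed. The differences were −0.48 for silencing, 0.13 for AGEs against Normal and −0.35 for the silenced group against Normal. The GCLC/POLDIP2 ratio was −0.75, −0.81 and −1.26 in shJMJD1A-AGE libraries, against −0.88, −0.99 and −0.68 in shCtrl-AGE libraries and −1.30, −1.23 and −1.21 in shCtrl-Normal libraries. The shJMJD1A-AGE replicate 3 fell among the Normal libraries, while the shCtrl-AGE and shCtrl-Normal groups did not overlap and differed by 0.40. In 7 of the 9 comparisons of a ratio between a pair of groups the two-sided exact permutation p was 0.1, the smallest that 3 libraries against 3 allow, and adjusted over the 9 comparisons it was 0.129, so none could pass. The others, GCLC/POLDIP2 after silencing (difference −0.09) and in the silenced group against Normal (0.30), had an exact p of 0.7 and 0.3. Without shJMJD1A-AGE replicate 3 these differences were 0.067 and 0.46.

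**Figure D4:**
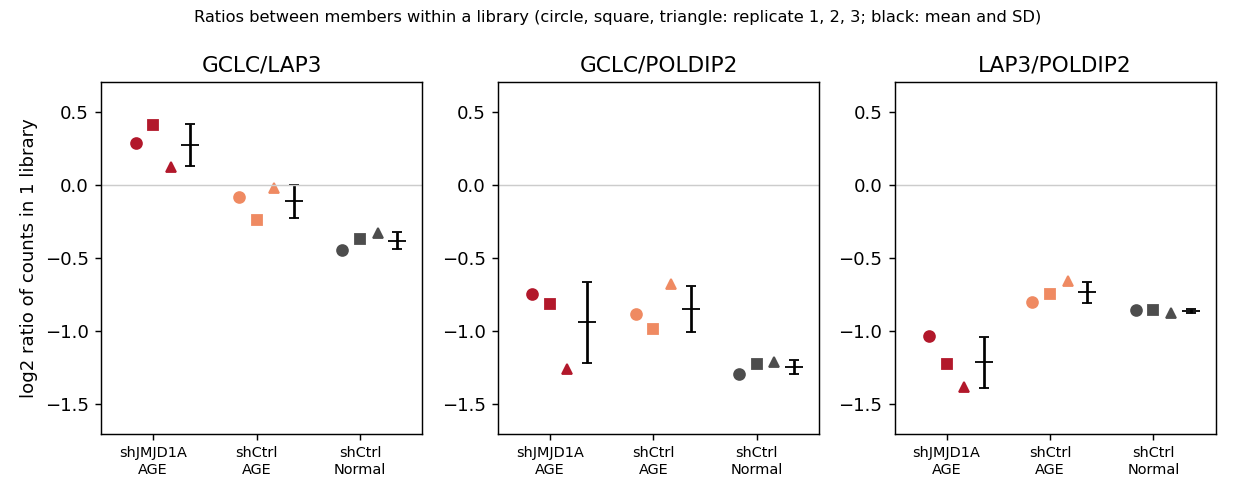
Log2 ratios of raw counts between members within each library (vertical axis), by group; symbols are replicates 1 to 3 and black bars the mean and SD of 3 libraries. GCLC/LAP3 and LAP3/POLDIP2 separate the 3 groups, and GCLC/POLDIP2 of shJMJD1A-AGE replicate 3 (−1.26) lies with the Normal libraries. How common such a separation is among other gene pairs was not tested.

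Other genes of the pathways were scarce among those analysed. Of 10 genes of glutathione synthesis, 15 of its breakdown, 23 NRF2 antioxidant genes and 24 of the NADPH oxidase and POLDIP2 partners, the members were the only ones present, and of 24 genes that use glutathione and 16 peroxide and superoxide enzymes none was. A broader list of 13 mitochondrial and NAD redox genes had 6 present, of which 5 were tested. Of these, 4 are described here. CYP51A1, the lanosterol demethylase of cholesterol synthesis, fell by 1.52 on the log2 scale after silencing (standard error 0.222, adjusted p = 0.000857 by edgeR), the other way from GCLC and POLDIP2. With AGEs CYP51A1 was higher, at 0.24 (standard error 0.0888, adjusted p = 0.0264 by edgeR), and in the silenced group against Normal it was lower, at −1.25 (standard error 0.228, adjusted p = 0.00128 by edgeR). NDUFAF7, an assembly factor of respiratory complex I, and SARM1, an enzyme that breaks down NAD, passed in no comparison, with log2 fold changes of 0.05 and 0.08 after silencing and −0.0032 and −0.07 with AGEs. The retinoic acid hydroxylase CYP26B1 did not pass either, at 0.37 after silencing and 0.24 with AGEs.

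The genes whose pattern over the 9 libraries was most like each member were found as the smallest root mean square difference of centred log2 values among 40 genes with a mean count of at least 50. For GCLC they were M6PR, the cation-dependent mannose 6-phosphate receptor (0.109), C1orf112 (0.158) and TFPI, the inhibitor of tissue factor (0.160). M6PR also rose after silencing, by 0.31 on the log2 scale (standard error 0.0722, adjusted p = 0.00397 by edgeR). C1orf112, at 0.28, and TFPI, at 0.16, did not pass there (adjusted p = 0.0510 and 0.359 by edgeR). For LAP3 they were NFYA, a subunit of the CCAAT-binding factor NF-Y (0.0768), the sorting nexin SNX11 (0.0902) and the small GTPase ARF5 (0.0941). For POLDIP2 they were LAS1L, a factor of ribosomal RNA processing (0.108), MAD1L1 of the spindle checkpoint (0.136) and the immunophilin FKBP4 (0.148). No member was among the 3 most alike genes of another: POLDIP2 ranked 13 and LAP3 21 for GCLC, LAP3 ranked 9 and GCLC 10 for POLDIP2, and POLDIP2 ranked 21 and GCLC 26 for LAP3. A small difference also arises between genes that hardly vary, so these ranks are a description only.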

How the data were processed

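Polyadenylated RNA of HK-2 cells was measured in 9 libraries of 3 groups. Per the labels and the methods, the authors used Trim Galore for trimming, HISAT2 2.1.0 for mapping (GRCh38) and counted reads per gene with featureCounts; the strand setting and annotation release are not given in the sources used here. The deposited values are raw counts, and 49 genes were analysed. Every pair of groups was fitted on all genes with edgeR 4.0.16 in R 4.3.3: filterByExpr (minimum count 10, minimum total 15), TMM, robust quasi-likelihood F test, Benjamini-Hochberg adjustment, threshold 0.05. Standard errors are the log2 fold change over the square root of F. The 3-group test used all 9 libraries. DESeq2 1.42.0 served as an alternative. Ratios added a pseudocount of 1. Totals of 67563 to 107036 counts limit the precision, and the intervals printed are those of the edgeR fits, which include the spread between libraries. Same-group libraries differed by more than sampling noise. The named genes are the members, genes of the fixed lists and the 3 most alike genes per member. Members were chosen by name, and earlier results of these data were known when members, lists and tests were set. Of the redox list, 1 tested gene and the list's counts are not reported here.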

Additional observations from a re-analysis of the deposited data

How the results depend on the processing

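With the exact permutation test per gene, whose smallest p for 3 libraries against 3 is 0.1, 0 genes passed in each comparison; there POLDIP2 had −0.26 (adjusted p = 0.230) with AGEs and 0.41 (0.167) after silencing, and GCLC 0.32 (0.167) after silencing and 0.48 (0.214) in the silenced group against Normal. Upper-quartile scaling, which with 46 genes rests on the count of about 1 gene, moved the median log2 fold change by 0.32 for AGEs, where 31 genes were higher and 1 lower (32 in all, against 15), and by −0.21 after silencing, where 3 were higher and 18 lower. With it GCLC was 0.46 (passing), LAP3 0.19 and POLDIP2 0.060 for AGEs, and after silencing GCLC was 0.11, POLDIP2 0.21 and LAP3 −0.28 (passing). LAP3 with plain totals was −0.19 for AGEs and 0.082 after silencing, where plain totals moved the median by 0.15, and 0.0088 after silencing with no filter. LAP3 in the silenced group against Normal passed with all 3 groups in 1 fit (−0.20) and with DESeq2 size factors (−0.21). It did not pass with upper-quartile factors (adjusted p = 0.365 by edgeR) or in the DESeq2 Wald test (adjusted p = 0.0563). For AGEs the split of higher and lower calls was 9 and 6, against 6 and 7 for TMM without the 3 members; in the silenced group against Normal it was 8 and 10, or 10 and 7 with upper-quartile factors.

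Leaving out each library in turn gave log2 fold changes of 0.088 to 0.20 for GCLC and −0.16 to −0.10 for LAP3 with AGEs, and −0.20 to −0.11 for LAP3 and 0.071 to 0.29 for POLDIP2 in the silenced group against Normal; the adjusted p of the 3-group edgeR test of LAP3 ranged from 0.0124 to 0.429. Among the ratios between members, GCLC/POLDIP2 moved most: leaving out each library gave differences of −0.19 to 0.067 after silencing, 0.21 to 0.46 in the silenced group against Normal, and 0.31 to 0.46 with AGEs. The turned sign after silencing came without shJMJD1A-AGE replicate 3.

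Replicate numbers showed no clear pairing of the libraries: 4 of 9 same-numbered pairs of libraries had deviations correlated above 0.1, and 0 of 9 libraries correlated best with their own number. This check rests on few genes and cannot see a shared culture or batch that does not follow the numbers, so it does not exclude pairing. With a replicate block in the pairwise fit, GCLC with AGEs was 0.14 and passed (adjusted p = 0.0307 by edgeR), and 16, 19 and 19 genes passed, against 15, 19 and 18. With a replicate block and all 3 groups in 1 fit, an alternative added after seeing the data, 7 genes passed for AGEs, where POLDIP2 was −0.29 (adjusted p = 0.0563 by edgeR), GCLC was 0.10 (0.446) and no longer passed, and LAP3 in the silenced group against Normal was −0.20 (0.0273). The causes of these shifts were not tested.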
